A study of Mus musculus with 10 samples.

Results

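Malat1 is one of the most abundant long noncoding RNAs of mammalian cells. The deposited files list 236 open reading frames (ORFs) on its transcript ENSMUST00000172812, of 75579 ORFs in all, and all 236 rows, taken in order of their start, are the subject here, a few singly and the rest by counts and ranges. The transcript is 6983 nt long and of 1 exon, and it lies on the minus strand at chr19:5795690-5802672 of GRCm38. Ribosome profiling, in which RNase leaves only the RNA stretches shielded by ribosomes (footprints), was done in CGR8, a mouse embryonic stem cell line of strain 129 grown without feeder cells on gelatin with LIF. There were 2 libraries each from cells without a drug (control), with 1 µM DMDA-PatA for 10 min, with 2 µg/ml harringtonine for 10 min and with 0.2 mg/ml puromycin for 20 min, all with the same amount of DMSO. A further 2 transcriptome libraries came from heat-fragmented RNA of untreated cells. Nuclei were spun out of every lysate, and all washes and lysis buffers held cycloheximide, which stops elongating ribosomes.

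Malat1 RNA is known as a nuclear transcript of the speckles, where splicing factors gather, and its 3′ end is released as the small mascRNA by cleavage. A ribosome that translates an ORF loads at the cap with eIF4F, scans to a start codon and moves to the stop codon. DMDA-PatA, an analog of pateamine A, acts on the helicase eIF4A of that loading complex. Harringtonine is used to hold new ribosomes at start codons while others run off, and puromycin ends the growing peptide chain early. The paper regards harringtonine as not specific for start sites. In 5′ UTRs it found relatively fewer footprints on AUG and CUG codons with that drug than without. An RNase-resistant stretch can also come from a bound protein or a folded RNA, so the drug responses along a noncoding transcript are read beside its ORFs.

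Of the 236 ORFs, 130 began with AUG and 106 with CUG. They were short, from 3 to 219 nt with a median of 42 nt, and the median was 46.5 nt for AUG and 36 nt for CUG ORFs. They had 145 distinct ends and lay in all frames (87, 68 and 81 ORFs). At least 1 ORF covered 77.2% of the transcript and 3156 nt were in 2 or more, so that many ORFs share the same footprints. A purine at position -3, the main feature of a favourable start context, was present at 76 of the AUG codons, a G at +4 at 32, and both at 24. Of the 84 AUG codons with either feature, 9 had at least 10 reads in both control libraries, against 1 of the 46 with neither. Among the 24 with both features, 2 did. Whether context matters here was not tested.

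The sequences below are those around the start codons that the results turn on, from 12 bases before the codon, with the start codon in capitals. They were read from GRCm38 on the minus strand, 5′ to 3′, and each name gives the first and last nt of the ORF on the transcript.
ORF 45 to 53 (CUG), chr19:5802611-5802640: agagcagcacagCTGagctcgtgaggcagg
ORF 209 to 277, chr19:5802447-5802476: ttaagagataacATGaaggcttatttaaac
ORF 242 to 277, chr19:5802414-5802443: ttgaaaaaggaaATGaggagaaaagtattt
ORF 263 to 277 (CUG), chr19:5802393-5802422: aaagtatttgtaCTGtataatggaggctga
ORF 270 to 359, chr19:5802386-5802415: ttgtactgtataATGgaggctgaccagagc
ORF 431 to 466, chr19:5802225-5802254: aatagtttgaaaATGaggtgtagttttaaa
ORF 498 to 521 (CUG), chr19:5802158-5802187: aaaatccttcgaCTGgcgcatgtacgtttg
ORF 521 to 550, chr19:5802135-5802164: acgtttgaaggcATGagttggaaacaggga
ORF 741 to 845, chr19:5801915-5801944: gaagattagaaaATGgaagtgaaagacgaa
ORF 1413 to 1457, chr19:5801243-5801272: cagcagcagtgcATGgtgaagatagcccag
The AUG ORFs at 209 and 242 share a frame and a stop codon, which the CUG at 263 shares as well. The AUG at 270 overlaps their end in another frame.

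The libraries held 9610905 and 11216573 footprint reads on the listed transcripts in control, 1071310 to 2867504 with the drugs, and 26038853 and 60612694 transcriptome reads. Normalized footprints are reads divided by a size factor per library that the authors set on spike-in reads. Per the paper's methods the spike-in was added in proportion to the mass of RNA. Normalized values thus compare footprints per amount of RNA between drugged and control cells, and not per cell. Differences in cell number or in RNA per cell cannot be read from them. The paper calls the 2 libraries of a group biological replicates and the labels do not name separate cultures, so that the p-values measure the spread between these libraries. They stood apart by a scale: the median transcript of DMDA-PatA replicate 2 had 1.56 times the normalized footprints of replicate 1 and that of harringtonine replicate 2 had 0.625 times (control 0.893, puromycin 0.978), and the ratios of Malat1 were 1.71 and 0.522. All 9 embryonic stem cell markers were listed in the transcriptome, together at 1381 and 1317 CPM (39.2 to 319 each). The endoderm list (3 of 4 genes listed) summed to 12.9 and 10.2, the neural list (3 of 3) to 64.7 and 55.1, the mesoderm list (2 of 2) to 82.5 and 90.7, and no listed gene was at 0. The 4 fibroblast markers summed to 5627 and 5732, most of it Col1a1 (4313 and 4382), and what these transcripts contribute to the results was not tested.

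Malat1 was the most abundant listed transcript in the transcriptome and one of the least occupied by footprints. It held 292638 and 813427 transcriptome reads, 1.12% and 1.34% of all, and ranked first in both libraries. In control it held 785 and 920 footprint reads, 0.00817% and 0.00820% of all. Its share of footprints over its share of RNA was thus 0.00727 and 0.00611, against medians of 0.817 and 0.8 over 11412 and 12871 transcripts. Only 0.333% and 0.777% of the transcripts lay below it, and 7.00% and 10.9% of the noncoding ones.

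The control footprints were concentrated at the 5′ end, whereas the RNA reads were not. The first 619 nt, which end at the ORF boundary nearest to nt 600, held 44.97% (exact 95% interval 41.4 to 48.5) and 52.0% (48.7 to 55.2) of the footprints of the 2 control libraries but 9.08% and 8.35% of the transcriptome reads. These intervals cover counting error only. Density fell from 68.6 normalized footprints per 100 nt there to 40.3 at nt 620 to 991 and 5.09 at nt 992 to 6983. The choice of the first 600 nt follows the study, which picked it on these samples, so the 5′ excess is no independent evidence for that choice.

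**Figure D1:**
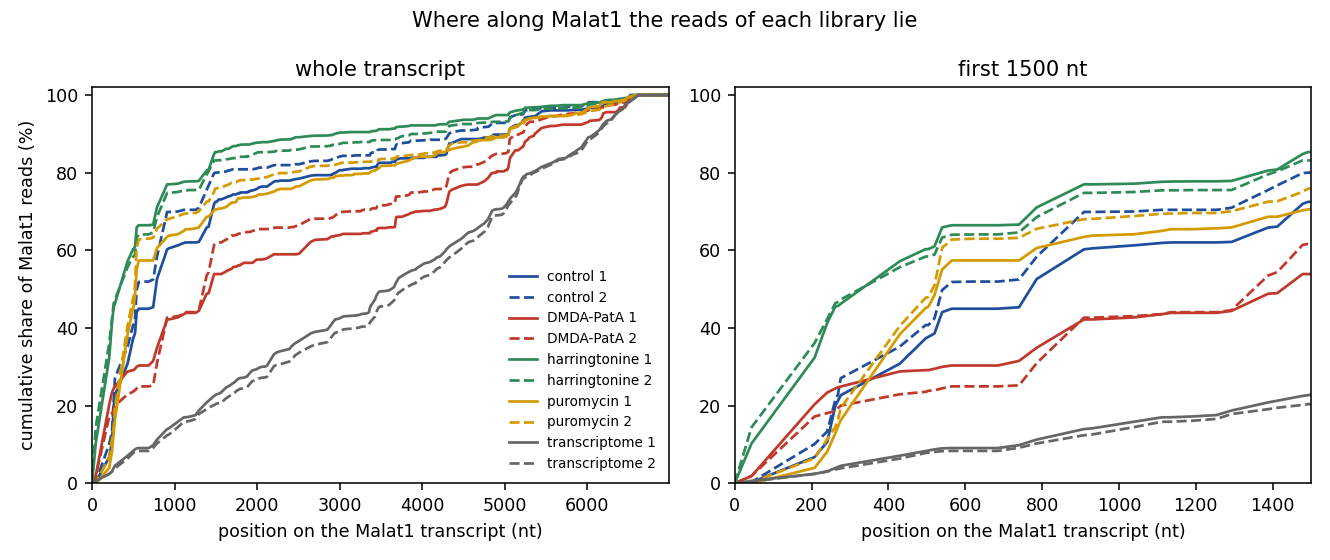
Cumulative share of the Malat1 reads (y, percent) against position on the transcript (x, nt), for the whole transcript and for its 5′ part, with 1 line for each of the 10 libraries. The control footprints reach 44.97% and 52.0% at nt 619, where the transcriptome stands at 9.08% and 8.35%.

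Set against the RNA, all 3 segments upstream of nt 992 held more footprints than the rest. The transcript was divided further at the first listed AUG into a leader (nt 1 to 208), an ORF cluster (nt 209 to 619), a middle segment (nt 620 to 991) and the 3′ segment (nt 992 to 6983). The 2 control libraries held 53 and 93 reads in the leader, 300 and 385 in the cluster, 127 and 166 in the middle and 305 and 276 in the 3′ segment. The transcriptome held 7147 and 19602, 19430 and 48316, 18139 and 43734, and 247922 and 701775 reads. In edgeR's quasi-likelihood test of the region by assay term, with Benjamini-Hochberg adjustment over all rows tested, footprints over RNA exceeded those of the 3′ segment by log2 4.00 ± 0.29 (SE) in the cluster (adjusted p = 2.98e-42), 3.12 ± 0.31 in the leader (3.7e-23) and 2.89 ± 0.30 in the middle (2.74e-22). The leader was below the cluster by log2 -0.88 ± 0.31 (adjusted p = 0.00532).

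Most single ORFs did not show such an excess over the sequence after them. The same test compares each ORF with all reads after its end. It called 37 of the 222 Malat1 ORFs it could be run on higher in footprints than in RNA, against 73.8% of all 18042 ORFs, and 14 lower, against 2.64%. The median Malat1 ORF was at log2 -0.21. Of the 37, 21 were AUG and 16 CUG ORFs with 25 distinct ends, and they had from 4 to 327 reads in the control libraries together. Without either transcriptome library the 37 became 19 and the 14 became 0. There were 9 that began in the first 600 nt, 2 up to nt 991 and 26 later. The 14 lower ORFs had at most 3 control reads, and 8 of them had none. They passed the filter only through the transcriptome libraries, the group in which they are high. Their calls are therefore a description and support nothing.

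The highest ratio belonged to the AUG ORF at 521 to 550, at log2 6.42 ± 0.33 (adjusted p = 5.86e-84), with 50 and 84 control reads against 520 and 1191 transcriptome reads. Inside the same stretch, the AUG ORF at 541 to 555 followed at 6.40 ± 0.57 from 5 and 17 control reads. Both lie next to a repeat: nt 555 to 706 are identical over at least 28 nt to other places in the genome (up to 1181 copies), and reads with multiple matches were left out. In that repeat lies the AUG ORF at 566 to 649, which was listed at 0 in all 10 libraries.

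The other named ORFs of the cluster stood at log2 3.01 to 4.53 except for the AUG ORF at 505 to 513, at 2.49 ± 0.65. Further down, the AUG ORF at 1413 to 1457 stood at 4.21 ± 0.37, the CUG ORF at 1389 to 1457 that contains it at 3.75 ± 0.35, the AUG ORF at 741 to 845 at 2.94 ± 0.30, and the AUG ORF at 4275 to 4334 at 2.79. The excess was therefore not limited to the first 600 nt.

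**Figure D2:**
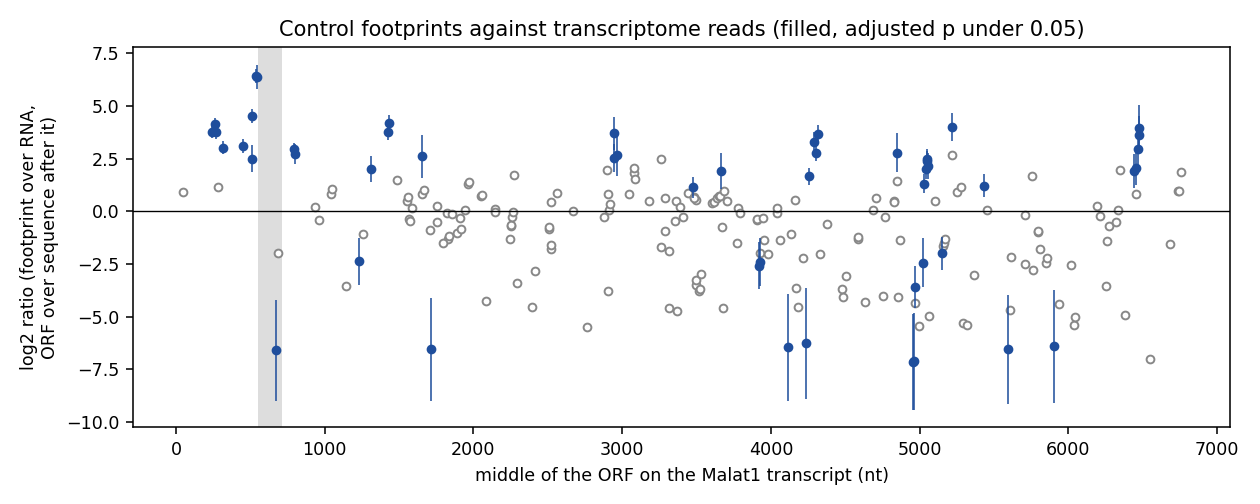
Log2 ratio of control footprints to transcriptome reads on each Malat1 ORF relative to the sequence after it (y), against position of the ORF (x, nt). The AUG ORFs at 521 and 541 lie highest at 6.42 and 6.40, filled points (adjusted p under 0.05, bars SE) above 0 number 37 and reach the 3′ part, and grey marks the repeat.

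Few ORFs carried most of the control footprints. At least 10 reads in both control libraries were reached by 18 of the 236 ORFs (10 AUG and 8 CUG), while 77 (39 AUG and 38 CUG) had no read in either. No footprint in any of the 8 libraries was seen on 36, and 3 had no read in any of the 10. By the rule for naming ORFs (every AUG ORF of the first 600 nt, then those with the most control reads), 14 ORFs are given singly. Outside these, the 222 ORFs had medians of 1 and 0 control reads and at most 23 and 14.

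Among windows of at least 10 nt in the cluster, the control footprints were densest at nt 242 to 262 and nt 521 to 540. All windows after the first begin at a listed AUG or CUG, because they were cut there. They therefore cannot place a maximum on a start codon. Between nt 242 and 262, the densest window of at least 10 nt in both control libraries, there were 73 and 75 reads. Nt 521 to 540 held 43 and 67. The 7 nt from the AUG at 270 differed between the libraries, with 11 and 38. The window before the AUG at 242, nt 209 to 241, held 31 and 30, and the long window after it, nt 277 to 430, held 64 and 75. Downstream, 57 and 54 reads lay at nt 741 to 786 from the AUG at 741, and 60 and 106 at nt 787 to 909. Past nt 6754, which follows the mascRNA at nt 6692 to 6749, none of the 8 footprint libraries had a read while the transcriptome libraries had 42 and 140. An antisense gene, Gm37376, lies opposite nt 280 to 732. The library kit keeps the strand, but whether counting used it was not given in the sources used here, so footprints on the ORFs within nt 280 to 732 may include reads of the antisense RNA.

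**Figure D3:**
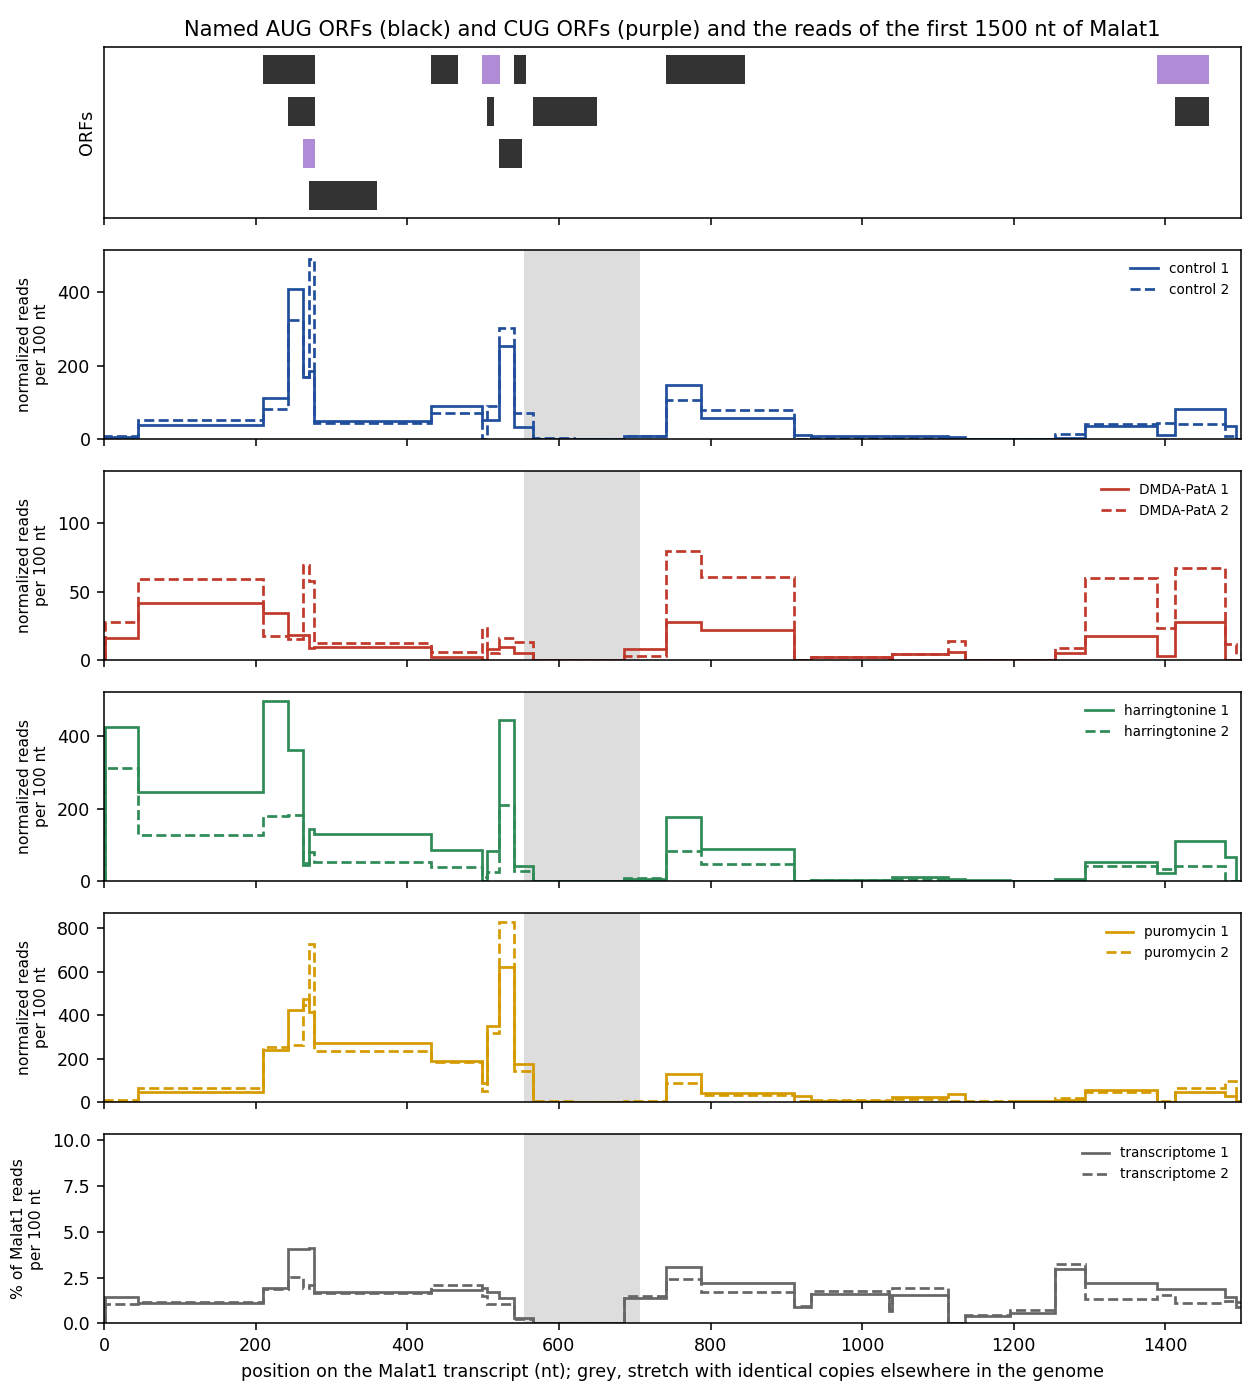
Normalized footprints per 100 nt (y, a scale for each panel) in the windows between ORF boundaries along the 5′ part of Malat1 (x, nt), for the 2 libraries of each footprint group, below a map of the named ORFs, with the transcriptome (lowest panel) as percent of Malat1 reads per 100 nt. Grey marks the stretch that is identical to other places in the genome, and the control means are high at nt 242 to 262 (367) and nt 521 to 540 (279), with 339 in the 7 nt from 270 through control replicate 2.

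DMDA-PatA lowered the footprints of the ORF cluster and left the sums over the leader and over the 3′ segment without a detected change. The cluster had 354 and 349 normalized footprints in control and 37.2 and 49.5 with DMDA-PatA. Every DMDA-PatA library lay below every control library, and the means differed by log2 -3.02 ± 0.48 (SE, n = 2 against 2, edgeR adjusted p = 6.15e-10). The leader had 62.5 and 84.3 in control and 75.8 and 110 with the drug, overlapping groups that differed by log2 0.33 ± 0.44 (edgeR adjusted p = 0.464). The leader sum includes the CUG ORF at 45 to 53, which had 0 and 5.44 in control and 34.7 and 63.3 with the drug. The sum therefore does not show the rest of the leader as unchanged, and that rest was not tested by itself. The 3′ segment had 360 and 250 against 214 and 363, also overlapping, and differed by -0.08 ± 0.44 (edgeR adjusted p = 0.858).

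The middle segment lay between these. It had 150 and 150 normalized footprints in control and 45.5 and 115 with DMDA-PatA, and it fell by log2 0.91 (SE 0.43, edgeR adjusted p = 0.0368). Without DMDA-PatA replicate 2 the difference was -1.72 and without replicate 1 it was -0.38, which is no longer called. The call was also lost without either control library (-0.91 and -0.90). Segment for segment within each library, where the scaling cancels, the cluster changed by log2 -2.93 ± 0.34 relative to the 3′ segment (edgeR adjusted p = 1.52e-10) and the leader by 3.34 ± 0.37 relative to the cluster (1.88e-11). The middle differed from the 3′ segment by -0.93 ± 0.33 (0.0158, not called at -0.66 without DMDA-PatA replicate 1 or control replicate 2), and the leader by 0.40 ± 0.35 (0.374).

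The scale of these changes rests on the spike-in reads. The median of all 14472 ORFs tested changed by log2 -4.26 with DMDA-PatA, so that the cluster fell by less than most ORFs of the cell. If the libraries are instead set to equal reads on coding sequences or scaled by TMM, which takes most genes as unchanged, the cluster is higher with the drug by 1.36 or 1.19, the middle by 3.39 or 3.22 and the 3′ segment by 4.28 or 4.11. The ratios within a library do not depend on this choice.

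**Figure D4:**
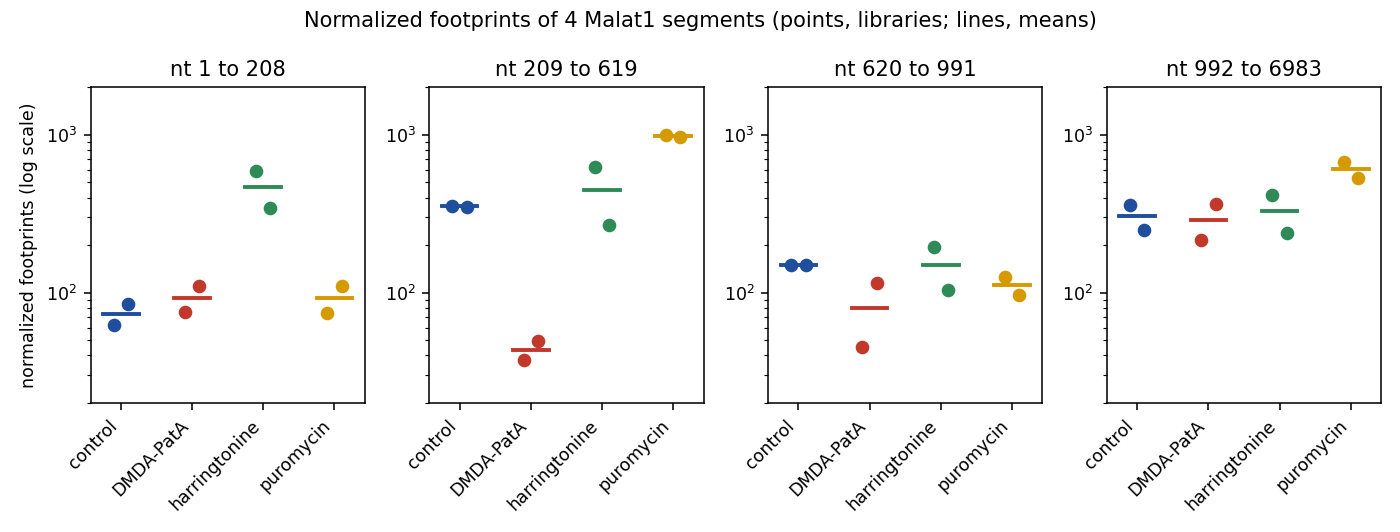
Normalized footprints (y, log axis) of the 4 Malat1 segments in the 8 footprint libraries, with points for libraries and lines for the means of 2. The ORF cluster at nt 209 to 619 is at 354 and 349 in control and 37.2 and 49.5 with DMDA-PatA, and the leader is at 593 and 345 with harringtonine.

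Along the single ORFs the falls with DMDA-PatA lay in the cluster and at the AUG ORF at 741. Of the 236 ORFs, 43 had at least 10 reads in at least 2 libraries and were tested, 18 of them through both control libraries and 25 through the drug libraries or a mix, so the 43 do not stand for all members. DMDA-PatA lowered 9 and raised 1, where 96.9% of all ORFs tested were lowered and 0.359% raised. The median Malat1 ORF tested was at log2 -0.03, above the median of -4.26 for all ORFs. Under TMM 0 ORFs of Malat1 were lowered and 38 raised. In the cluster the CUG ORF at 277 to 291, with 4 and 5 reads in control and 5 and 6 with DMDA-PatA, was tested and not called (-0.22).

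The AUG ORF at 209 to 277 had 141 and 186 reads in control and 33 and 31 with DMDA-PatA, or 167 ± 1.68 and 23.0 ± 3.06 normalized footprints (mean ± SD, n = 2). It fell by log2 2.86 (SE 0.48, edgeR adjusted p = 4.38e-09). The AUG at 242, which shares its stop codon, had 104 and 151 reads against 12 and 24. It fell by log2 3.29 (SE 0.50, edgeR adjusted p = 8.89e-11), and its start window at nt 242 to 262 went from 73 and 75 reads to 6 and 4.

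The largest falls among these ORFs were those of the middle of the cluster. Reads on the AUG ORF at 431 to 466 were 32 and 37 reads in control and 1 and 1 with DMDA-PatA, a difference of log2 -5.43 ± 0.78 (edgeR adjusted p = 5.47e-12). The CUG ORF at 498 to 521 had 27 and 68 against 4 and 2 (-4.40) and the AUG ORF at 521 to 550 had 50 and 84 against 3 and 7 (-4.18 ± 0.59). With no more than 7 reads per drug library the sizes of these falls are loosely fixed.

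Smaller falls were seen at the CUG at 263 (26 and 64 against 9 and 15 reads, log2 -2.35), the AUG at 270 (57 and 68 against 19 and 22, -2.11) and the AUG at 541 (5 and 17 against 2 and 3, -2.55). The last was not called without control replicate 2 (-1.65, edgeR adjusted p = 0.17). The AUG ORF at 741 to 845 had 81 and 87 against 36 and 76 reads and fell by log2 1.06 (SE 0.45, edgeR adjusted p = 0.02), with both drug libraries below both control libraries once normalized. It was no longer called without DMDA-PatA replicate 1 (-0.50) or without control replicate 1 (-0.91) or 2 (-1.19), nor by DESeq2 (-1.06, adjusted p = 0.0512). These 9 lowered ORFs are also the 9 whose ratio to the reads after them was lower in the test that leaves the scaling out (of 39 tested, against 43.3% of all), and the only higher ratio was that of the CUG at 45 to 53 (7.9% of all). The lowered ratios ranged from -4.98 at the AUG at 431 to -0.96 at the AUG at 741.

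Beyond nt 1000 no tested ORF was lowered. For the AUG ORF at 1413 to 1457 there were 41 and 20 reads in control and 26 and 50 with DMDA-PatA (log2 -0.21), and the CUG ORF at 1389 to 1457 had 46 and 30 against 29 and 56 (-0.35 ± 0.47, edgeR adjusted p = 0.462). The AUG ORF at 4275 to 4334 had 23 and 15 against 23 and 31 (-0.03). Of 216 ORFs whose downstream reads could be tested, 0 were lower and 0 higher after the ORF with DMDA-PatA, against 57.1% and 0.23% of all 6955. Both edgeR at an unadjusted p under 0.05 and DESeq2 also gave 0. The downstream stretches of successive ORFs are nested, so they form nearly a single measurement.

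The ORF that DMDA-PatA raised was the first listed, the CUG ORF at 45 to 53, which was singled out after its values were seen. It had 0 and 6 reads in control, 55 and 78 under DMDA-PatA, 37 and 32 under harringtonine, and 2 and 9 under puromycin. Both DMDA-PatA libraries and both harringtonine libraries lay above the control ones, by log2 3.96 and 3.24 as fitted. The puromycin libraries overlapped the control ones, and their difference of 1.43 was not called (edgeR adjusted p = 0.102). Since the ORF passed the filter only through the groups in which it is high, these values are a description, and its call supports nothing. The neighbouring nt 1 to 44 held 2 and 3 reads in control and 11 and 15 with DMDA-PatA. The window from nt 45 to 208 that contains the ORF held 51 and 90 reads in control and 109 and 120 with the drug, which after normalization are 60.1 and 81.6 against 68.8 and 97.4. Of these normalized values the ORF made up 0 and 5.44 in control and 34.7 and 63.3 with the drug. The rest of the window was thus lower in both DMDA-PatA libraries than in both control libraries, a difference that was not tested.

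**Figure D5:**
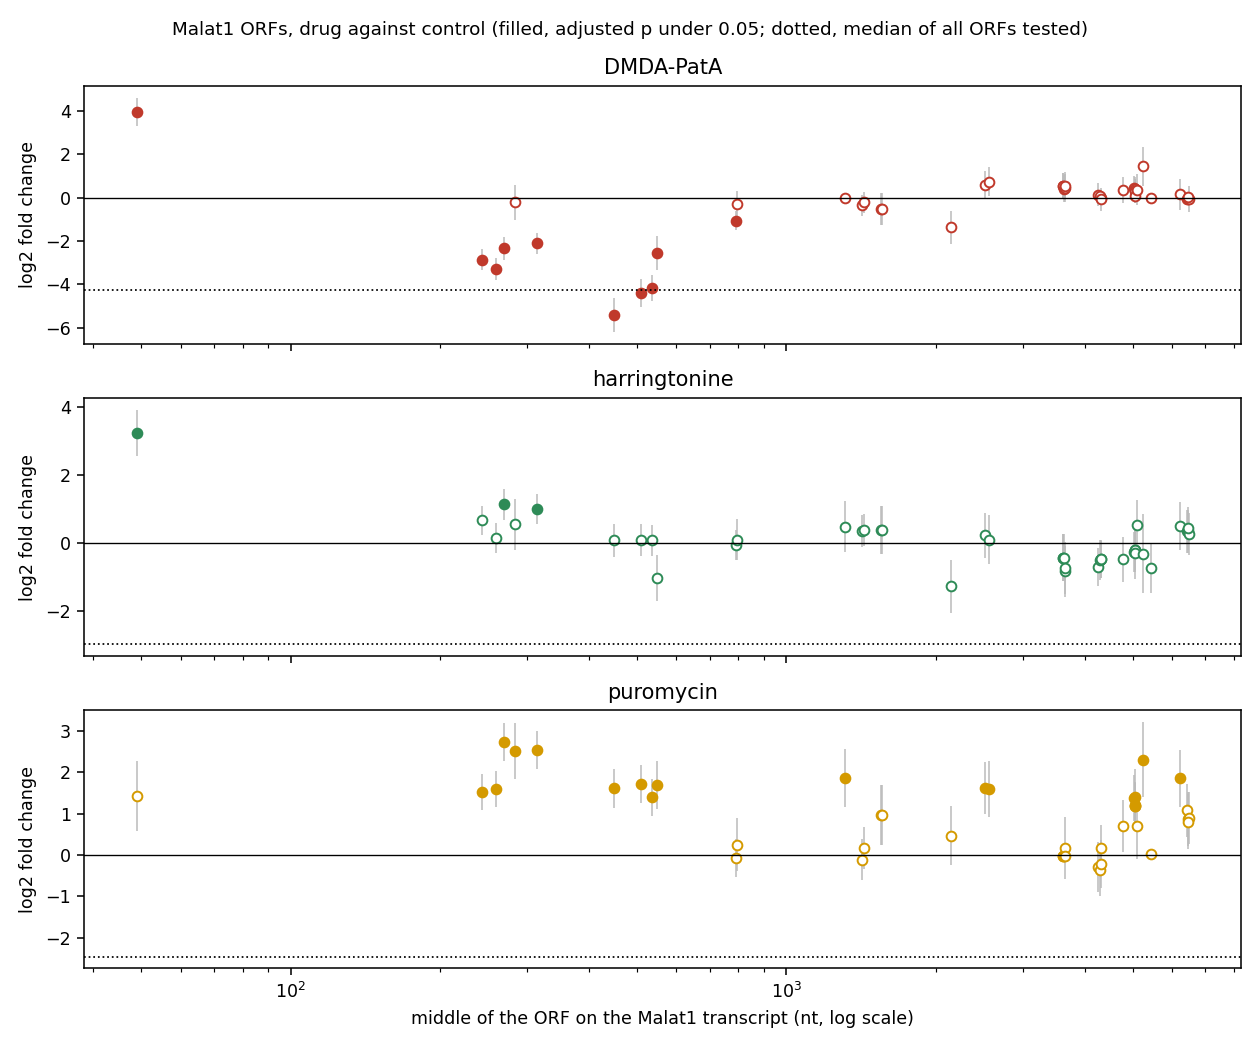
Log2 fold change of each tested Malat1 ORF with each drug against control (y, with SE) against the middle of the ORF (x, nt, log scale). Filled points passed an adjusted p of 0.05 and the dotted lines are the medians of all ORFs tested, at -4.26, -2.96 and -2.46, and with DMDA-PatA the 9 lowered ORFs all start between nt 209 and 741.

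Harringtonine raised the leader and the start of the transcript. The leader had 62.5 and 84.3 normalized footprints in control and 593 and 345 with harringtonine, with no overlap and a difference of log2 2.67 ± 0.45 (n = 2 against 2, edgeR adjusted p = 9.63e-09). The rise was steepest at the very 5′ end, where nt 1 to 44 held 2 and 3 reads in control, 11 and 15 under DMDA-PatA, 185 and 197 under harringtonine, and 0 and 3 under puromycin. These 44 nt precede every listed ORF. The densest window of Malat1 was nt 209 to 241, which was cut at the first AUG, in harringtonine replicate 1 and nt 1 to 44 in replicate 2.

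The other segments did not show a detected change with harringtonine. The cluster had 624 and 267 normalized footprints against 354 and 349 in control (log2 0.34, edgeR adjusted p = 0.456), with 1 harringtonine library above and 1 below both controls. The middle had 196 and 104 and the 3′ segment 418 and 239, both overlapping control. Within libraries the leader rose by log2 2.40 ± 0.33 relative to the cluster (edgeR adjusted p = 7.9e-09) and by 2.53 ± 0.35 relative to the 3′ segment (4.67e-09), while the cluster against the 3′ segment was at 0.15 (0.748).

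Of the 43 ORFs tested, harringtonine raised 3 and lowered 0, where 1.1% of all ORFs were raised and 89% lowered. At an unadjusted p under 0.05 edgeR also lowered 0, and so did DESeq2. The medians were log2 0.09 for Malat1 and -2.96 for all ORFs. Under TMM or equal reads on coding sequences 41 were raised. Beside the CUG at 45, the raised ORFs were the CUG ORF at 263 to 277, with 26 and 64 reads in control and 154 and 63 with harringtonine (1.14 ± 0.45, edgeR adjusted p = 0.0133), and the AUG ORF at 270 to 359, with 57 and 68 against 181 and 107 (1.00, 0.0278). The windows that begin at these start codons did not rise. Reads went from 10 and 13 to 3 and 5 at nt 263 to 269, and from 11 and 38 to 10 and 8 at nt 270 to 276. The rise of these 2 ORFs thus lay further on, and nt 277 to 430 went from 64 and 75 reads to 198 and 114. Both ratios to the reads after the ORF were higher as well (0.96 and 0.89), making 3 of 39 against 14.8% of all (1 without control replicate 1, harringtonine replicate 1 or either DMDA-PatA library), and 0 were lower against 41.9%, with 0 also at an unadjusted p under 0.05 and by DESeq2.

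The calls in the cluster did not hold in every setting. The CUG at 263 was not called without control replicate 1 (0.77, edgeR adjusted p = 0.268) or by DESeq2 (1.16, adjusted p = 0.0518). The AUG at 270 was not called without control replicate 1 (1.06, 0.131) or 2 (0.94, 0.183), without the filter (1.00, 0.061) or with the replicate number as a block (0.94, edgeR adjusted p = 0.0601). The AUG at 242 had 104 and 151 reads in control and 215 and 105 with harringtonine, and its difference of log2 0.16 turned to -0.82 (edgeR adjusted p = 0.0381) without replicate 1. The AUG at 209 had 141 and 186 against 386 and 206 (0.67, edgeR adjusted p = 0.129), the AUG at 431 had 32 and 37 against 53 and 33 (0.09), and the AUG at 521 had 50 and 84 against 96 and 68 (0.08). Without replicate 1, harringtonine lowered 3 Malat1 ORFs and raised 1, and the CUG at 263 and AUG at 270 stood at -0.03 and 0.22. Without replicate 2 it raised 6, and the cluster segment (0.83) was called.

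Puromycin raised the ORF cluster and the 3′ segment and left the middle segment behind. The cluster had 354 and 349 normalized footprints in control and 1001 and 965 with puromycin, without overlap, a difference of log2 1.48 ± 0.45 (n = 2 against 2, edgeR adjusted p = 0.00124). The 3′ segment had 360 and 250 against 672 and 535, also without overlap (0.98 ± 0.44, edgeR adjusted p = 0.03), but this call was lost when any 1 of the 4 libraries was left out (0.75 to 1.27). The middle had 150 and 150 against 126 and 97.0 (-0.44 ± 0.44, 0.34) and the leader 62.5 and 84.3 against 74.4 and 111 (0.34, 0.469), neither of them called.

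Against the 3′ segment the middle fell by log2 1.44 (SE 0.34, edgeR adjusted p = 0.000524), and against the cluster the leader fell by log2 1.14 (SE 0.36, 0.00822), a call lost without control replicate 2 (-0.90) or puromycin replicate 1 (-0.87). The cluster itself was not detectably ahead of the 3′ segment (0.49 ± 0.32, edgeR adjusted p = 0.223). With TMM or equal reads on coding sequences the middle would be higher with puromycin as well, by 2.04 or 2.00.

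Of the 43 ORFs tested, puromycin raised 18 and lowered 0, where 0.85% of all ORFs were raised and 85.2% lowered. No further ORF was lowered by edgeR at an unadjusted p under 0.05 (0) or by DESeq2 (0), and DESeq2 raised 9. The medians were log2 0.97 for Malat1 and -2.46 for all ORFs. Of the 18, 3 passed the filter only through the puromycin libraries. By place, 9 started in the first 600 nt and the other 9 between nt 1294 and 6145. The later 9 rose by log2 1.17 to 2.30, from no more than 20 and 26 reads in the puromycin libraries. Several of the 18 overlap, such as the ORFs at 5020 to 5067 and 5030 to 5071, so they are not 18 separate observations. Without control replicate 1 or 2 the raised ORFs numbered 7 or 10.

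The largest rises were those of the overlapping ORFs at 263 to 277 and 270 to 359, and they lay mostly after the 2 start codons. The mean normalized footprints with puromycin were 2.72 times control at nt 263 to 269 and 1.69 times at nt 270 to 276. At nt 277 to 430 they were 5.42 times control, from 64 and 75 reads to 201 and 291. The CUG ORF at 263 to 277 had 26 and 64 reads in control and 140 and 248 with puromycin (log2 2.74 ± 0.46, edgeR adjusted p = 1.17e-08), and the AUG ORF at 270 to 359 had 57 and 68 against 193 and 282 (2.54 ± 0.45, 7e-08). The first AUG at 209 had 141 and 186 against 236 and 382 reads, or 167 ± 1.68 against 482 ± 9.21 normalized footprints (mean ± SD), and rose by 1.52 ± 0.44 (edgeR adjusted p = 0.000762).

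The AUG ORFs at 242 (104 and 151 against 191 and 315 reads, log2 1.60), at 431 (32 and 37 against 52 and 88, 1.61) and at 521 (50 and 84 against 78 and 156, 1.39) rose by like amounts. So did the CUG at 498 (27 and 68 against 70 and 132, 1.71) and the AUG at 541 (5 and 17 against 20 and 25, 1.69), the last of which reached the filter only through puromycin. Without control replicate 1 the AUG at 521 (1.22), the CUG at 498 (1.33) and the AUG at 541 (1.21) were not called. The densest window of Malat1 with puromycin was nt 521 to 540, which held 60 and 133 reads, whereas nt 242 to 262 held 43 and 44. The AUG ORF at 505 to 513, with 2 and 8 control reads and 9 and 12 with puromycin, passed no filter and was not tested.

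Neither the AUG ORF at 741 to 845 nor those at nt 1389 to 1457 were among the raised. The AUG at 741 had 81 and 87 reads in control and 46 and 57 with puromycin (log2 -0.08), the CUG at 1389 had 46 and 30 against 15 and 34 (-0.11), the AUG at 1413 had 41 and 20 against 15 and 33 (0.16) and the AUG at 4275 had 23 and 15 against 7 and 23 (0.17). Relative to the reads after them 5 ORFs fell, the AUG at 741 (-0.88) and the CUG at 1389 (-1.21) among them, and 4 rose, namely the CUG at 263 (1.81), the AUG at 270 (1.65), the CUG at 498 (0.94) and the CUG at 277 to 291, which reached the filter only through puromycin and is no support for a rise. These are 5 and 4 of 39, against 29.5% and 12.1% of all (0 fell without control replicate 1 or puromycin replicate 1, and 2 rose without control replicate 1 or puromycin replicate 2). The other 3 that fell overlap one another between nt 4207 and 4334 and, like the CUG at 277, were named after their values were seen.

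All reads after the first 619 nt together differed by log2 0.65 with puromycin and were not called (edgeR adjusted p = 0.392). Calls came further along. Of the 216 ORFs tested, 77 had more reads after them with puromycin, against 1.73% of all, and 0 had fewer, against 31%, with 0 also at an unadjusted p under 0.05 and by DESeq2. They started between nt 3535 and 6042 and rose by log2 1.21 to 1.62, and since the stretches after them are nested they are not 77 separate observations. DESeq2 called 164. With harringtonine 0 were higher and 0 lower (5.36% and 39.6% of all), with 0 of each also at an unadjusted p under 0.05 and by DESeq2.

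The share of the first 619 nt sums up the drug responses within each library. It was 44.97% and 52.0% in control, 30.3% and 24.97% under DMDA-PatA, 66.5% and 64.1% under harringtonine, and 57.4% and 63.0% under puromycin. The DMDA-PatA libraries lay below and the harringtonine and puromycin libraries above both control libraries, in harringtonine through the leader and in puromycin through the cluster. With 2 libraries against 2 an exact permutation test of such shares cannot reach 0.05, and none was made. All 3 comparisons share the same 2 control libraries.

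The counts in this paragraph are not separate observations, since the stretches before successive ORFs are nested. Reads before each ORF accumulate from the 5′ end and sum reads already described, so they are no further evidence. With DMDA-PatA they were lower before 67 of the 236 ORFs and higher before 1, where 53.6% and 5.16% of all were. At an unadjusted p under 0.05 edgeR gave 140 lower and DESeq2 gave 169. With harringtonine they were higher before 11 (14.9% of all) and lower before 0 (22.5%, with 0 at an unadjusted p under 0.05 and by DESeq2). With puromycin they were higher before 10 (1.4%) and lower before 0 (13%, again 0 by both). The single higher value with DMDA-PatA and the highest with harringtonine were those before nt 45, at log2 1.83 and 5.93.

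Taken as a whole, Malat1 footprints lay higher relative to control than those of nearly all transcripts. The normalized total was 925 and 834 in control, 372 and 637 under DMDA-PatA, 1830 and 955 under harringtonine, and 1874 and 1707 under puromycin. Both DMDA-PatA libraries lay below control, and both harringtonine and both puromycin libraries above it. The differences were log2 -0.80 ± 0.43 with DMDA-PatA (edgeR adjusted p = 0.0604), 0.66 ± 0.42 with harringtonine (0.13) and 1.03 ± 0.43 with puromycin (0.0204), so only the last was called.

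The medians over all 12874 transcripts tested were log2 -3.55, -2.22 and -2.10, and 98%, 86.1% and 84.2% of transcripts were lowered while 0.264%, 0.909% and 0.388% were raised. Malat1 lay above 98.4%, 98.5% and 99.6% of them. Among 344 noncoding transcripts, whose medians were -2.54, -0.89 and -0.93, it lay above 83.4%, 89.0% and 95.1%. These positions are descriptions of a transcript chosen with earlier results known.

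Other long noncoding RNAs were taken from a list of 20, of which 11 were listed and 7 tested, among them Snhg11, whose listed transcript GENCODE types as protein coding. DMDA-PatA lowered 3, namely Pvt1 (log2 -1.76), the X-linked Firre (-1.33) and Epb41l4aos (-0.97), and raised 0, and with harringtonine and puromycin 0 were lowered and 0 raised. Their medians were -0.67, 0.15 and -0.13. Neat1, the scaffold of paraspeckles and the neighbour of Malat1 on the chromosome, was at -0.67 with DMDA-PatA (edgeR adjusted p = 0.139), 0.15 with harringtonine (0.747) and 0.75 with puromycin (0.106). The pattern most like that of Malat1 over the 8 footprint libraries, by Pearson's r of log2(normalized footprints + 1) among 162 noncoding transcripts, belonged to Gm24407, an snRNA (0.968), followed by Gm53 (0.941) and Snhg5 (0.928). The 8 points share the scaling of their libraries, and only the order of likeness is given.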

How the data were processed

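The 10 libraries were grouped by their labels. Per the paper's methods, the authors aligned SOLiD reads to mm10 with LifeScope, kept single matches of quality 10 or more (footprints of 26 to 36 nt, placed at the ribosomal P site), and deposited a normalized signal for the ORF and for the transcript before and after it. Footprints were scaled to spike-in reads and transcriptome libraries to size factors per region. The submitters' processing notes name Picard 1.38. All deposited values were whole multiples of 1 read (100%, tolerance 0.01), so that whole reads and size factors were recovered, and the planned count tests ran on these.

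Windows are differences of cumulative reads between ORF boundaries. The 3 columns of a row do not always add up to the same total. The sums ran from 767 to 802 in control replicate 1 (total 785). They ran from 1165 to 1458 in puromycin replicate 2 (total 1373) and from 1666 to 1855 in harringtonine replicate 1 (total 1804). Reads near an ORF boundary can therefore be off by many, and the reads of an ORF need not match those of the windows inside it. Genes came from GENCODE M21. edgeR 4.0.16 (R 4.3.3, limma 3.58.1) was fitted to all listed ORFs with the 4 footprint conditions in 1 fit, at least 10 reads in 2 libraries, Benjamini-Hochberg adjustment and a threshold of 0.05. Most ORFs tested were called lower (96.9% with DMDA-PatA, 89% with harringtonine, 85.2% with puromycin), so adjusted p-values of ORF reads lay close to unadjusted ones. For the AUG at 741 with DMDA-PatA the edgeR p was 0.0193 unadjusted and 0.02 adjusted. The adjustment thus guards little against false calls among Malat1 ORFs. The SE is the absolute log2 fold change over the square root of F. Segments were added to the same fits after the files were seen. DESeq2 1.42.0, other scalings and filters and leaving out libraries were alternatives. Repeats were found with blastn 2.17.0, and the rest used Python 3.11.15, numpy 2.4.6, pandas 2.3.3, scipy 1.17.1 and matplotlib 3.10.9. On simulated counts for DMDA-PatA against control over 14472 ORFs, changes of log2 3, 2 and 1 were recovered in 100%, 92.5% and 12.5%, and in the test of an ORF against the reads after it (2429 ORFs) in 80%, 27.5% and 2.5%. Each simulation changed only 200 ORFs, all with higher control counts than most tested Malat1 ORFs, and left the others unchanged. The second also used a fixed spread between libraries. These rates therefore do not give the recovery to be had for the Malat1 ORFs.

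ORFs named singly are every AUG ORF starting in the first 600 nt, the 3 later AUG ORFs and the 3 CUG ORFs with the most control reads. The part of the series described, the lists and the naming rule were chosen with earlier results of these data known. The other deposited transcripts served only as background.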

Additional observations from a re-analysis of the deposited data

How the results depend on the processing

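Replicate numbers did not pair the libraries: deviations of same-numbered libraries correlated at 0.0534, -0.00815 and -0.041 between control and DMDA-PatA, harringtonine and puromycin over 14472 ORFs. With the replicate block the middle segment under DMDA-PatA (-0.91) and the 3′ segment under puromycin (0.99) were no longer called, nor was the AUG ORF at 270 under harringtonine (0.94), 9 ORFs were lower in footprints than in RNA, and no other segment changed its call and no other count of ORFs moved by over 1.5 times. Sign changes between 2 values that both missed the threshold were counted as unchanged.

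The scaling decided most directions. All values below are log2 fold changes, first under TMM and then with equal reads on coding sequences, and both take most of the cell's translation as unchanged by a drug. With DMDA-PatA, lowered ORFs became 0 and 0 and raised ones 38 and 39. The segments stood at 4.51 and 4.67 (leader), 1.19 and 1.36 (cluster), 3.22 and 3.39 (middle) and 4.11 and 4.28 (3′), and all reads after the first 619 nt at 1.03 and 4.03, where TMM was computed on each measure. The named ORFs that changed sign stood at 1.35 and 1.52 at nt 209, 0.87 and 1.03 at 242, 1.79 and 1.96 at 263, 2.08 and 2.25 at 270, 1.54 and 1.70 at 541, 3.09 and 3.25 at 741, 3.82 and 3.98 at 1389, 3.97 and 4.13 at 1413, 4.17 and 4.33 at 4275, and -0.041 and 0.12 at 521. Those at 521 and 541, and that at 242 under TMM, were not called. The ORFs at 431 (-1.39 and -1.23) and 498 (-0.27 and -0.10) stayed below control and were not called either. With harringtonine 41 and 41 ORFs were raised. Its segments stood at 3.22 and 2.99 (cluster), 2.91 and 2.68 (middle) and 3.05 and 2.82 (3′), reads after the first 619 nt at 0.98 and 2.78, and the ORFs at 541, 741 and 4275 at 1.91 and 1.69, 2.90 and 2.67, and 2.55 and 2.32. With puromycin 43 and 43 ORFs were raised, the leader stood at 2.83 and 2.78, the middle at 2.04 and 2.00, reads after the first 619 nt (0.65, not called, with the spike-in scaling) at 1.28 and 3.12, and the ORFs at 741 and 1389 at 2.40 and 2.35, and 2.42 and 2.37. With the size factors of the DMDA-PatA and harringtonine libraries exchanged, harringtonine lowered 1 ORF.

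Without a filter on low counts the middle segment under DMDA-PatA (-0.91) and its ratio to the 3′ segment (-0.93) were no longer called, nor were the AUG ORF at 270 under harringtonine (1.00), the 3′ segment (0.98) and the leader to cluster ratio (-1.14) under puromycin. Ratios of ORFs to the reads after them then gave 5 lower with DMDA-PatA, 1 higher with harringtonine, and 0 lower and 1 higher with puromycin. DESeq2 also lost the middle segment (-0.91), its ratio (-0.94) and the puromycin ratio of leader to cluster (-1.15), raised 9 ORFs with puromycin, and gave 1 higher ratio with harringtonine and 0 lower and 2 higher with puromycin. Requiring 20 reads lost the middle ratio under DMDA-PatA (-0.94) and gave 1 higher ratio with harringtonine and 2 with puromycin. The cause of these changes was not tested.

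With the 5′ part ending nearest to nt 400, its mean share was 33.0% in control, 56.4% with harringtonine, 39.5% with puromycin and 6.75% in the transcriptome. Ending nearest to nt 1000 it was 65.6%, 76.1%, 66.4% and 14.5%, and 42.8% with DMDA-PatA.

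Leaving out 1 library at a time, where a lone library was taken to vary like the other groups, DMDA-PatA raised 1 to 2 ORFs and lowered 7 to 9, harringtonine lowered 0 to 3 and raised 1 to 6, and puromycin raised 7 to 19. Lower and higher ratios to the reads after the ORF numbered 6 to 9 and 1 with DMDA-PatA, 0 to 1 and 1 to 3 with harringtonine and 0 to 5 and 2 to 5 with puromycin, and in footprints over RNA 0 to 8 and 19 to 30. The middle segment ranged from -1.72 to -0.38 under DMDA-PatA and its ratio from -1.24 to -0.66. The cluster ranged from -0.39 to 0.83 under harringtonine. Under puromycin the 3′ segment ranged from 0.75 to 1.27 and the leader to cluster ratio from -1.49 to -0.87. The middle segment's call was also lost without either puromycin library (-0.91 and -0.91). Without harringtonine replicate 1 the ORFs at 242 and 263 stood at -0.82 and -0.032. The loss of the cluster under DMDA-PatA (-3.23 to -2.82), the rise of the leader under harringtonine (2.22 to 3.003) and the rise of the cluster under puromycin (1.46 to 1.51) kept their calls each time.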
